A study of Mus musculus with 10 samples.

Results

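The 9 genes described here encode ATP-binding cassette transporters of subfamily A, the family of large membrane proteins that move lipids across or out of membranes. They are Abca1, Abca2, Abca3, Abca5, Abca6, Abca7, Abca8a, Abca8b and Abca9, picked by name from the 41388 genes of the deposited liver RNA-seq tables. All 9 were present, and all 9 passed the filters on low counts. In the reference annotation 5 of them, Abca5, Abca6, Abca8a, Abca8b and Abca9, stand side by side on mouse chromosome 11, and the remaining 4 lie on other chromosomes.

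The livers came from 10-week-old mice of a reciprocal cross between BFMI860-12/Hber (here BFMI), a Berlin Fat Mouse line bred as a model of juvenile obesity, and the lean strain C57BL/6NCrl (B6N). The matBFMI group held 3 F1 males with a BFMI mother and a B6N father, and the patBFMI group held 3 F1 males with a BFMI father and a B6N mother. Each set of 3 F1 males came from separate dams. The F1 males of both groups carry 1 set of autosomes from each strain and ate a high fat diet between day 21 and day 70. Their X chromosome and mitochondria come from the mother and their Y chromosome from the father. The strain of these therefore differs between the F1 groups. The BFMI and B6N groups were inbred animals with 1 female and 1 male each. The sources differ on the diet of these inbred animals, which was standard breeding diet by the sample records and high fat diet by the methods. With 1 animal per strain and sex, a strain by sex difference rests on single livers.

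Each library had between 46988713 and 96023811 reads assigned to genes. All matBFMI libraries were from lane 6 and all patBFMI libraries from lane 5 by the column headers, so the 2 crosses were also 2 lanes, and their effects cannot be separated. The first patBFMI library had a count in 32421 genes, against 22095 to 26694 in the other 5 F1 libraries. Marker genes of hepatocytes summed to 63333 to 91716 read counts scaled to library size (CPM) in the 10 libraries. The 5 lymphocyte markers summed to at most 2.42 CPM and the 3 adipocyte markers to at most 0.569 CPM.

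As background, a subfamily A transporter is one long chain with a pair of membrane domains and a pair of ATP-binding domains. Abca1 hands cellular cholesterol and phospholipid to apolipoprotein A-I and so starts the formation of high-density lipoprotein (HDL), for which the liver is a main source. Its transcription is raised by the liver X receptors when sterols accumulate. Abca3 loads phospholipid into the surfactant bodies of the lung, Abca2 sits in endosomes and lysosomes and is abundant in the nervous system, and Abca7 moves phospholipid and is known for its part in phagocytosis. The chromosome 11 group is the least studied branch. Abca5 is a lysosomal member, and Abca8a and Abca8b are the mouse counterparts of human ABCA8, for which export of cholesterol and effects on HDL have been described.

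The chromosome 11 genes occupied 406 kb at chr11:109932190-110337716 of the GRCm38 build, all on the minus strand. From low to high coordinate the order was Abca8b, Abca8a, Abca9, Abca6 and Abca5, with gaps of 29.8, 4.8, 8.6 and 17.6 kb between neighbours. In the transcripts used, each gene had 39 exons and a coding sequence of 4860 to 4926 bases. Abca1 lies at chr4:53030787-53159895, Abca2 at chr2:25428703-25448540, Abca3 at chr17:24351950-24410201 and Abca7 at chr10:79996494-80015572.

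Abca8a and Abca8b were the most alike pair of the cluster, with 75.5% identity over the 4793 aligned coding bases. The other 9 pairs had 63.0% to 72.6% identity. Reads from a stretch that both genes hold cannot be assigned to one of them, so the longest such stretch is shown with 30 bases on each side, in lower case with the 6 bases that differ in capitals.
Abca8a, coding bases 1937 to 2093: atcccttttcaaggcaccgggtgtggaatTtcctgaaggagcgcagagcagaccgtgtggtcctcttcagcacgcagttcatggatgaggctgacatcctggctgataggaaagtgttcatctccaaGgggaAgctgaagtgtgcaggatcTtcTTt
Abca8b, coding bases 1940 to 2096: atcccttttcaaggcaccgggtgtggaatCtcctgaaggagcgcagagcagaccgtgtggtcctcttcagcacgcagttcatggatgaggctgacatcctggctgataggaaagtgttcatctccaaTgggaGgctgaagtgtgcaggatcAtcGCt
The shared run was 97 bases long and spanned exons 15 and 16 of both genes. Of the 4811 windows of 50 bases in the Abca8a coding sequence, 105 (2.18%) were also found in Abca8b, and of the 4761 windows of 100 bases 0 were. By exact matches in the reference sequence, nearly all of the coding sequence therefore separates the genes at these lengths. Reads aligned with mismatches and sequence differences of the BFMI strain were not examined. An antisense gene, Gm11697, overlaps Abca8b and had 0 to 2 counts per library, beside at least 5222 for Abca8b.

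The starts of the cluster genes differed in base composition, and those of the 3 genes with the clearest differences between groups are shown here. They are the 250 bases before the RefSeq start on GRCm38.p6, written along the gene's strand, with E-boxes (CACGTG) and GC boxes (GGGCGG or its reverse complement) in capitals.
Abca8a, chr11:110095938-110096187: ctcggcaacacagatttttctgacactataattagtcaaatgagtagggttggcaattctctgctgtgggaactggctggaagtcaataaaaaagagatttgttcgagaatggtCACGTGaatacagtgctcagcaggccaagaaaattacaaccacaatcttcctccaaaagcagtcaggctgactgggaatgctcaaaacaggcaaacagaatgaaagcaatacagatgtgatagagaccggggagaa
Abca8b, chr11:109995846-109996095: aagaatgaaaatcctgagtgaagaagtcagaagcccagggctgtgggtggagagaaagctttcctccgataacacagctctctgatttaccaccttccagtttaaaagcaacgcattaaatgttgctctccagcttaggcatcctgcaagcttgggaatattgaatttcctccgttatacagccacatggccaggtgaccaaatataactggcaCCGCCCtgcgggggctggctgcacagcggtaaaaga
Abca5, chr11:110337717-110337966: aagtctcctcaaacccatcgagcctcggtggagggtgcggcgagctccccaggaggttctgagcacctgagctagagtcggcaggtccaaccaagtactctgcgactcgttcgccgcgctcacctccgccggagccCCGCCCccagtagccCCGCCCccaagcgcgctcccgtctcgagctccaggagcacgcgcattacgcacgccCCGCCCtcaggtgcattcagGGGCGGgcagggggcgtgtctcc
The Abca8a window held 43.2% G and C with 4 CG dinucleotides, and the Abca8b window 48.8% with 6. The Abca9 window was similar, with 44.4% and 2 CG dinucleotides. The Abca5 window held 69.2% with 25 CG dinucleotides, against a median of 52.4% and 6 over the 32851 promoters of the same length. The 4 genes outside the cluster held 58.8% to 67.6% and 12 to 21 CG dinucleotides, so Abca5 was closer to them than to its neighbours. No window of Abca6 was in the table. An E-box was found in Abca8a, 136 bases before the start, and in Abca1, 147 bases before it, and 6.02% of all windows held one on either strand. Among the windows shown, a GC box was found 4 times in Abca5 and once in Abca8b, and 32.7% of all windows held it on either strand. TATAAA was found in Abca1 alone of the 8 windows, 29 bases before the start, and CCAAT in Abca7 alone, while 12.4% and 33.8% of all windows held them. AGGTCA was in none of the 8 windows and in 14.0% of all. A direct repeat of AGGTCA with 4 bases between the copies, a form of the liver X receptor element, was in none of the 8 windows and in 0.0152% of all windows. The windows of Abca8a and Abca8b had 52.4% identity, against 75.5% for their coding sequences.

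Abca6 was the most abundant member per length. Levels of different genes are compared here in the deposited RPKM, a read count scaled by gene length and library size, which the authors computed after quantile normalisation. Abca6 had 51.5 to 70.6 RPKM over the 10 libraries and Abca1 had 25.3 to 38.9 RPKM, and these ranges did not overlap. Abca8a followed with 10.2 to 33.4 RPKM and Abca8b with 12.8 to 25.2 RPKM, ranges that overlapped each other. The range of Abca8a also overlapped that of Abca1, whereas that of Abca8b lay below it. In both B6N livers Abca8a, at 33.4 and 31.2 RPKM, stood above Abca1, at 30.7 and 28.7 RPKM. Abca3 had 4.22 to 9.08 RPKM and Abca2 3.96 to 5.14 RPKM, and Abca3 was the higher of the pair in each of the 10 libraries although the ranges overlapped. Abca9, Abca5 and Abca7 were the lowest, with 0.577 to 2.00, 0.712 to 1.61 and 0.687 to 1.36 RPKM, and their order cannot be separated from the spread. The 5 cluster genes made up 67.4% to 74.8% of the summed RPKM of the 9 genes, and Abca6 alone 55.4% to 68.1% of the cluster's sum.

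Levels of 1 gene in different libraries are compared in CPM after TMM scaling. Over the 10 libraries the coefficient of variation of Abca6 was 5.79%, the smallest of the 9 genes on this scale. It was 7.12% for Abca2, 11.6% for Abca7, 14.0% for Abca1, 15.1% for Abca9, 20.5% for Abca5, 22.3% for Abca3, 25.2% for Abca8b and 37.0% for Abca8a. The lowest and the highest of these values thus both belonged to cluster genes. In the deposited RPKM the order of the lowest values was the other way, with 8.43% for Abca2 and 9.0% for Abca6. Abca6 had 340.7, 352.9 and 351.8 CPM in matBFMI, 366.5, 308.9 and 373.7 CPM in patBFMI, 333.0 and 366.9 CPM in BFMI, and 367.8 and 336.7 CPM in B6N. No group of livers stood apart for this gene.

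**Figure D1:**
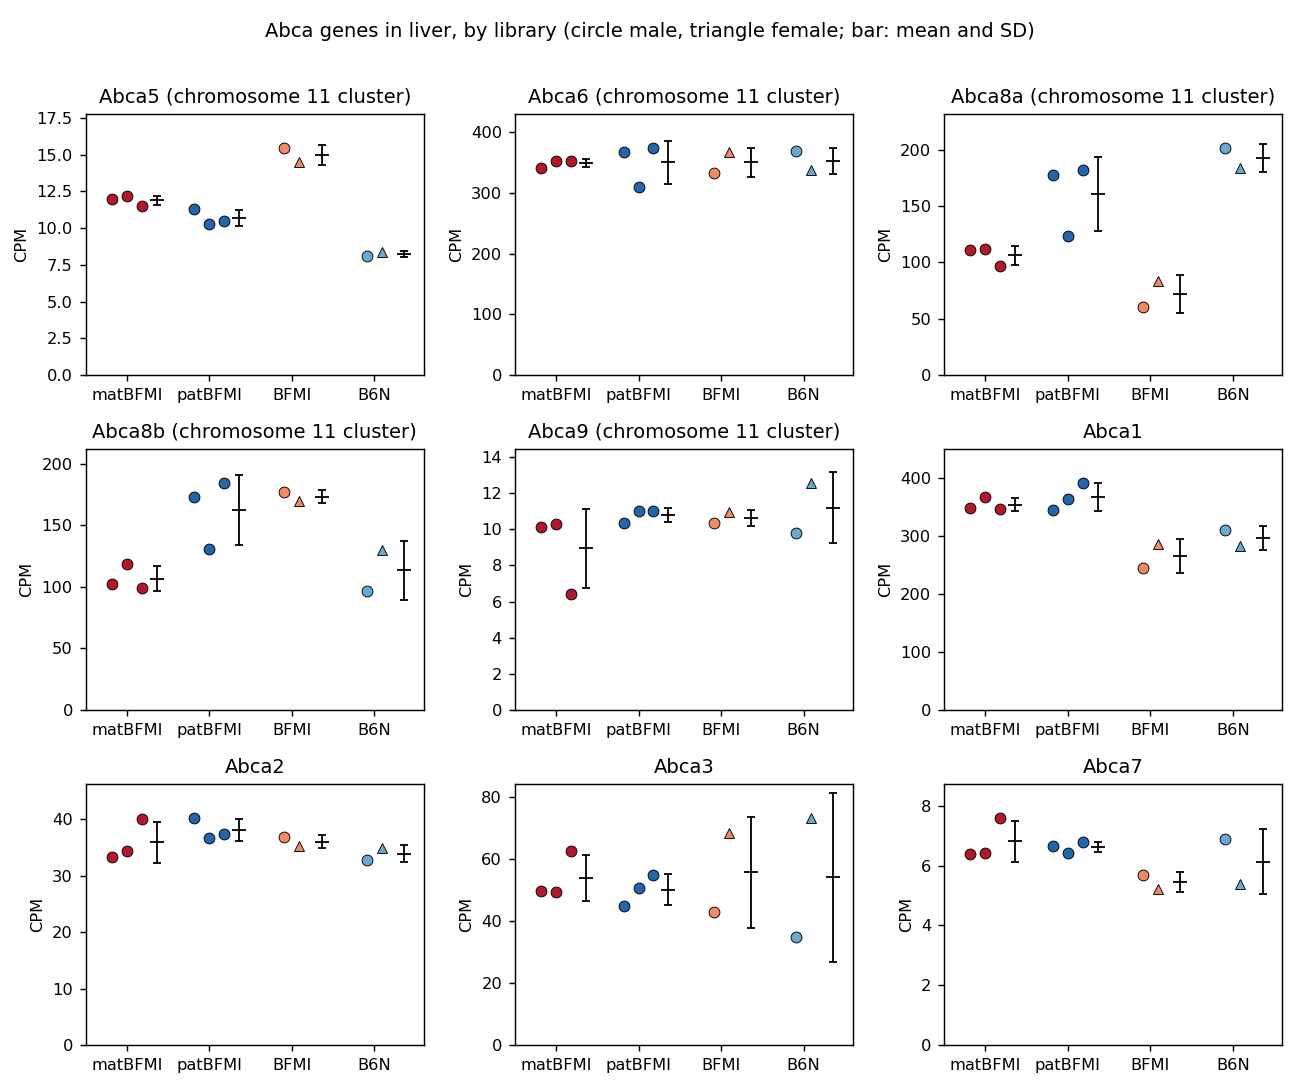
Level of each of the 9 Abca genes in CPM (vertical axis, starting at 0) in every library of the 4 groups, with circles for males, triangles for females, and a bar for the group mean and SD (n = 3 for matBFMI and patBFMI, n = 2 for BFMI and B6N). Abca8a was lowest in BFMI (60.3 and 83.6 CPM), Abca8b was high in BFMI (177 and 170 CPM), and Abca6 was nearly level at 308.9 to 373.7 CPM.

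The comparison of the inbred strains shows which members differ between obese BFMI and lean B6N livers. Abca8a was 2.71-fold lower and Abca5 1.82-fold higher in BFMI livers, and both belong to the cluster. Of the 9 genes 2 passed the test, edgeR's quasi-likelihood test with Benjamini-Hochberg adjustment to 0.05 over 19974 genes, with a term for sex. In the same comparison 6.67% of all genes tested passed it, 3.61% as higher and 3.05% as lower. At an unadjusted p below 0.05 the count was 3 of 9, against 18.3% of all genes. The BFMI and B6N libraries did not overlap for 4 of the 9 genes, which with 2 livers a strain was so for 43.8% of all genes.

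Abca8a had 60.3 CPM in the BFMI male and 83.6 CPM in the BFMI female, against 201.6 CPM in the B6N male and 183.9 CPM in the B6N female. All BFMI values were below all B6N values, and all 6 F1 values, 96.4 to 182.0 CPM, lay between the means of the parental strains. The fitted log2 fold change was -1.44 (SE 0.21, adjusted p = 0.00249, edgeR). Without the BFMI male it was -1.11, and without the B6N male -1.14, and Abca8a was not called in either fit. Both fits compare the BFMI female with the B6N female, since the term for sex takes up the remaining male. They are therefore not separate checks. The BFMI male was the one inbred library from lane 1, with 96023811 assigned reads, whereas the other 3 were from lane 4 and had 46988713 to 55008330. The part of lane and depth in the strain values was not tested.

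Abca8b, the neighbour, was the other way round. It had 176.8 CPM in the BFMI male and 169.6 CPM in the BFMI female, against 96.5 CPM in the B6N male and 130.05 CPM in the B6N female. Both BFMI livers were above both B6N livers. The log2 fold change was 0.63 (SE 0.188), and it did not pass the test in edgeR (adjusted p = 0.0843). DESeq2 (adjusted p = 0.00994), the 4 inbred libraries fitted alone (adjusted p = 0.0467) and the fit without a filter on low counts (adjusted p = 0.00487) did call it. The edgeR fit without the second patBFMI library called it too (adjusted p = 0.036), with the log2 fold change still 0.63. The strain fit shares its estimate of the spread with the F1 males.

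Abca5 had 15.5 CPM in the BFMI male and 14.5 CPM in the BFMI female, against 8.08 CPM in the B6N male and 8.36 CPM in the B6N female. Its log2 fold change was 0.87 (SE 0.114, adjusted p = 0.00138, edgeR). The 6 F1 livers, at 10.3 to 12.2 CPM, all lay between the parental means. On the deposited RPKM, limma gave a log2 fold change of 0.36 (adjusted p = 0.788) with 1 RPKM added before the logarithm and of 0.60 (adjusted p = 1) with 0.1 added. The call was thus not made on the RPKM scale, where Abca5 averaged 1.51 RPKM in BFMI and 0.959 RPKM in B6N, and why the scales differed was not tested.

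Abca9 and Abca6, which lie between these genes, had log2 fold changes of -0.06 (SE 0.201) and -0.01 (SE 0.142). The 4 genes outside the cluster had log2 fold changes of -0.16 to 0.10, and none of them passed the test in edgeR. The median size of the log2 fold change was 0.63 for the 5 cluster genes, 0.13 for the other 4 and 0.27 over all genes tested.

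The balance between Abca8a and Abca8b, looked at after their values had been seen, was reversed between the strains and lay between them in the F1 livers. The ratio of Abca8a to Abca8b counts was 1.08, 0.945 and 0.976 in matBFMI and 1.03, 0.945 and 0.986 in patBFMI. It was 0.341 and 0.493 in the BFMI male and female, against 2.09 and 1.41 in the B6N male and female. On the log2 scale the F1 livers averaged -0.01 ± 0.07 (SD, n = 6), between -1.29 ± 0.37 in BFMI and 0.78 ± 0.40 in B6N (SD, n = 2 each). All F1 values lay between those of the strains. The part of read assignment between the 2 genes in these ratios was not tested. Per length, in the deposited RPKM, Abca8a was above Abca8b in all 6 F1 livers, with ratios of 1.12 to 1.27, against 0.409 and 0.598 in BFMI and 2.43 and 1.67 in B6N. An exact two-sided permutation test of 2 against 2 livers cannot go below p = 0.33, the value it gave for BFMI against B6N. The sum of both genes was 237.1 and 253.2 CPM in BFMI, against 298.1 and 313.9 CPM in B6N.

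**Figure D2:**
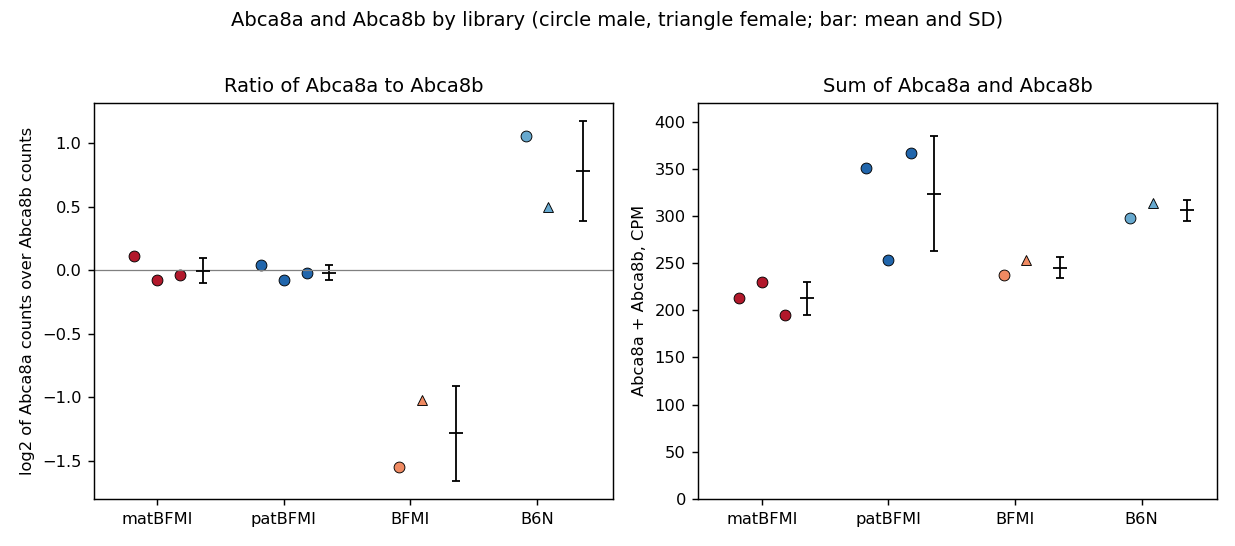
Left, log2 of the ratio of Abca8a to Abca8b counts in each library; right, the sum of both genes in CPM (axis starting at 0), by group, with circles for males, triangles for females and bars for mean and SD. The 6 F1 livers sat at -0.08 to 0.11 on the log2 scale, above the BFMI livers (-1.55 and -1.02) and below the B6N livers (1.06 and 0.50), while the sum was 195.3 to 229.9 CPM in matBFMI and 253.6 to 366.5 CPM in patBFMI.

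The comparison of the reciprocal F1 males sets the directions of the cross, with the same parental strains, against each other. The strain of the X, Y and mitochondrial genome and the lane follow the direction and cannot be told apart from it. Abca8a and Abca8b were both lower on average in matBFMI livers, by 1.53-fold and 1.54-fold, but neither passed the test. With edgeR's quasi-likelihood test over 16797 genes 0 of the 9 genes passed, and 0.143% of all genes tested did. At an unadjusted p below 0.05 the count was 2 of 9, both lower in matBFMI, against 9.85% of all genes in either direction and 4.7% as lower, and DESeq2 called the same 2 genes, Abca8a (adjusted p = 0.00901) and Abca8b (adjusted p = 0.00297). DESeq2 called 305 genes in all and edgeR 24.

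Abca8a had 110.7, 111.7 and 96.4 CPM in matBFMI, against 177.9, 123.2 and 182.0 CPM in patBFMI. Abca8b had 102.7, 118.2 and 98.8 CPM in matBFMI, against 172.6, 130.4 and 184.5 CPM in patBFMI. For both genes the groups did not overlap, and the second patBFMI liver was nearest to the matBFMI livers. The log2 fold change was -0.61 for Abca8a (SE 0.16, adjusted p = 0.243 in edgeR) and -0.62 for Abca8b (SE 0.147, adjusted p = 0.19 in edgeR). Without the second patBFMI liver both passed, at -0.78 (adjusted p = 0.044) and -0.76 (adjusted p = 0.0468). With each other library left out in turn neither did.

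The sum of the pair averaged 213 ± 17.3 CPM in matBFMI and 324 ± 61.1 CPM in patBFMI (SD, n = 3 each; exact two-sided permutation test p = 0.10, the smallest that 3 against 3 allows). The log2 ratio of Abca8a to Abca8b differed between the crosses by 0.02 (exact permutation test p = 0.8, n = 3 each). The pair thus had log2 fold changes of one sign and size between the F1 groups and of opposite signs between the strains.

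Along the chromosome the fitted log2 fold changes ran in order, at -0.62 for Abca8b, -0.61 for Abca8a, -0.28 for Abca9, -0.02 for Abca6 and 0.14 for Abca5. None of these passed the test. The order of Abca8b and Abca8a was not stable, at -0.60 and -0.64 without the first matBFMI liver. Abca9 had 10.1, 10.3 and 6.43 CPM in matBFMI, against 10.3, 10.99 and 11.004 CPM in patBFMI, and its difference (SE 0.167, adjusted p = 0.625, edgeR) was -0.09 without the third matBFMI liver. Abca5 had 12.0, 12.2 and 11.5 CPM in matBFMI, against 11.3, 10.3 and 10.5 CPM in patBFMI, a difference that was small (SE 0.089, adjusted p = 0.652, edgeR) although the groups did not overlap. Groups that did not overlap were seen for 4 of the 9 genes, all in the cluster, and for 15.3% of all genes tested.

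Outside the cluster the F1 groups were close. Abca1 averaged 355 ± 10.7 CPM in matBFMI and 368 ± 23.5 CPM in patBFMI, and Abca2 averaged 35.9 ± 3.63 CPM in matBFMI and 38.2 ± 1.92 CPM in patBFMI (SD, n = 3 each). Abca3 averaged 53.9 ± 7.55 CPM in matBFMI and 50.1 ± 5.02 CPM in patBFMI, and Abca7 averaged 6.81 ± 0.688 CPM in matBFMI and 6.62 ± 0.178 CPM in patBFMI (SD, n = 3 each). The log2 fold changes of these 4 genes were -0.10 to 0.09, with SEs of 0.0931 to 0.118. The median size of the log2 fold change was 0.28 in the cluster, 0.08 outside it and 0.13 over all genes tested.

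Markers of Kupffer cells, the resident macrophages of the liver, were lower on average where Abca8a was lower, in both of these comparisons. The 11 markers, none of them at 0, summed to 223 to 256 CPM in matBFMI, against 281 to 296 CPM in patBFMI. All 11 had a log2 fold change below 0 (median -0.32), and 0 passed the adjusted test in edgeR. At an unadjusted p below 0.05 the count was 8, all lower, against 4.7% of all genes as lower. Between strains the sums were 265 to 337 CPM in BFMI, against 444 to 469 CPM in B6N. Of the 11 markers 5 passed the test as lower, against 3.05% of all genes tested. In whole tissue, fewer cells of a type and less RNA per cell cannot be told apart, and the part of these cells in the Abca8a values was not tested. Abca8b was higher in BFMI livers, opposite to the markers. For F1 livers over the parental middle all 11 markers were below 0 (median -0.44). Of these 4 passed the test in edgeR, against 2.05% of all genes tested. Abca8a was not lower there, with a log2 fold change of 0.24 (SE 0.17). The 12 markers of stellate cells and fibroblasts summed to 447 to 480 CPM in matBFMI and 457 to 510 CPM in patBFMI, and to 475 to 528 CPM in BFMI and 426 to 538 CPM in B6N, ranges that overlapped in each pair. Of these 12 markers 1, Rgs5, passed between strains, as higher in BFMI (log2 fold change 0.79, adjusted p = 0.0133, edgeR). Of the 9 endothelial markers, Lyve1 was lower in BFMI livers (log2 fold change -1.13, adjusted p = 0.0286, edgeR), while the sums overlapped, at 420 to 454 CPM in BFMI and 438 to 495 CPM in B6N. Lyve1 was also lower on average in matBFMI than in patBFMI (log2 fold change -0.66, adjusted p = 0.235, edgeR). There 3 of the 9 markers were above 0, and the sums overlapped. The 5 cholangiocyte markers summed to 54.9 CPM in the BFMI male and 28.2 CPM in the BFMI female, against 27.9 to 31.0 CPM in B6N. The 5 erythroid markers, none of them at 0, were higher on average in BFMI livers, as Abca5 and Abca8b were, with sums of 733 to 918 CPM in BFMI and 225 to 394 CPM in B6N. The 4 globin genes among them were higher in BFMI (log2 fold changes of 1.40 for Hbb-bt to 1.72 for Hba-a1, adjusted p of 0.000392 or less, edgeR). Their sums overlapped between the F1 groups, at 545 to 586 CPM in matBFMI and 522 to 601 CPM in patBFMI. The part of blood cells in the strain values was not tested.

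Between the sexes Abca3 had the largest difference of the 9 genes. It had 68.3 CPM in the BFMI female and 73.4 CPM in the B6N female, against 43.1 CPM in the BFMI male and 34.8 CPM in the B6N male. Both females were above both inbred males and above all 6 F1 males, whose values were 44.8 to 62.6 CPM. The log2 fold change of females over males was 0.87 (SE 0.161), and its adjusted p of 0.0505 (edgeR) fell just outside the threshold. It passed in DESeq2 (adjusted p = 6.8e-05), in the 4 inbred libraries alone (adjusted p = 0.00212) and with at least 50 counts required (adjusted p = 0.0395), and 0.556% of all genes tested passed in the main fit. Among the 9 genes it was the one with an unadjusted p below 0.05, which 7.8% of all genes had. Females and inbred males did not overlap for 3 of the 9 genes, against 25.1% of all genes. None of the other 8 genes passed in edgeR, and their log2 fold changes were -0.24 for Abca7 to 0.22 for Abca9. In a fit with a strain by sex term 0 of the 9 genes passed, the smallest adjusted p being 0.728 for Abca8a (edgeR, spread from the F1 males). With 1 animal in each strain and sex this does not show that the strains shared the sex difference.

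Set against the middle of the parental strains, Abca1 was higher on average in the F1 males. It had 349.2, 366.9 and 347.6 CPM in matBFMI and 345.6, 364.8 and 392.3 CPM in patBFMI, against 244.5 and 286.7 CPM in the BFMI male and female and 311.4 and 282.9 CPM in the B6N male and female. All 6 F1 livers were above all 4 inbred livers, a separation seen in either direction for 5.83% of all genes tested. The log2 fold change was 0.38 (SE 0.115) and did not pass the test in edgeR (adjusted p = 0.131), whereas DESeq2 called it (adjusted p = 0.0139). Without the BFMI male the log2 fold change was 0.17 (adjusted p = 0.896). Hybrid genome, lane and, by the sample records, diet differ together between F1 and inbred livers and cannot be told apart. The number of genes with a count was also higher on average in the inbred libraries, and its part was not tested.

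In this comparison 0 of the 9 genes passed, and 2.05% of all genes tested did. At an unadjusted p below 0.05 the count was 2 of 9, Abca1 and Abca3, against 16.6% of all genes, and DESeq2 called 1. Abca3 averaged 52.0 ± 6.10 CPM in F1 livers (SD, n = 6) and 54.9 CPM at the parental middle, yet its fitted log2 fold change was 0.42 (SE 0.133, adjusted p = 0.15), because the fit sets F1 males against parents of the same sex. The cluster genes had a median log2 fold change of 0.01, and the largest was 0.24 for Abca8a (SE 0.17). Abca5 and Abca8a, the genes called between the strains, were between the parental means in all 6 F1 livers.

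**Figure D3:**
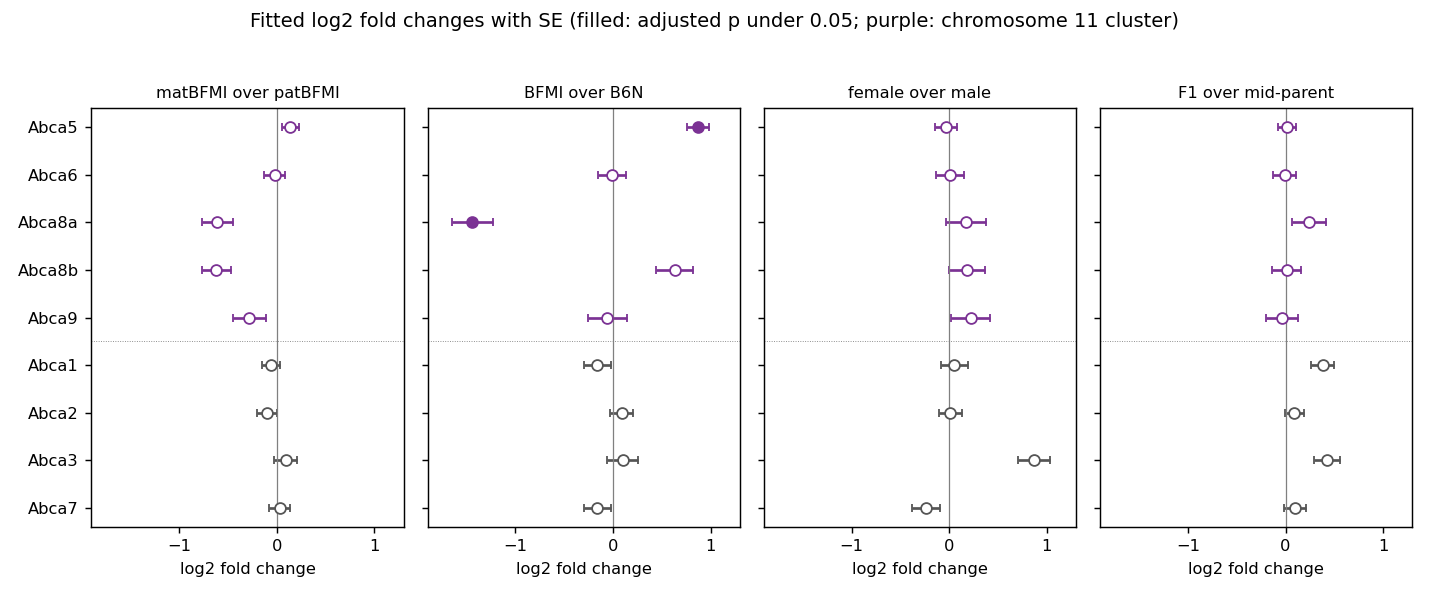
Fitted log2 fold change (horizontal axis) with SE for the 9 genes in the 4 comparisons, with cluster genes in purple above the dotted line and filled points for adjusted p under 0.05. The filled points are Abca8a (-1.44) and Abca5 (0.87) in BFMI over B6N, and the cluster genes are close to 0 in F1 over mid-parent, where Abca1 (0.38) and Abca3 (0.42) are to the right.

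Genes around the cluster were tested in the same comparisons. Over all genes tested 6.67% passed between strains and 0.556% between sexes. Of 31 other genes within 1000 kb, 14 were tested between the F1 groups and 15 in the other comparisons. Next to the cluster lay 1700023C21Rik, a noncoding gene with 0 to 7 counts per library, and on the other side Map2k6, a kinase gene of the p38 pathway. Map2k6 had a log2 fold change of -0.22 (SE 0.302) for matBFMI over patBFMI and -0.31 (SE 0.349) for BFMI over B6N. Between the F1 groups 0 of the 14 passed (edgeR), against 0.143% of all genes tested. At an unadjusted p below 0.05 there were 2, against 9.85% of all genes. Between strains 1 of 15 passed, Kcnj2, an inward rectifier potassium channel gene, with 4.35 ± 0.0562 CPM in BFMI and 1.18 ± 0.463 CPM in B6N (SD, n = 2 each; log2 fold change 1.93, adjusted p = 0.00469, edgeR). Between sexes 1 of 15 passed, Arsg, a lysosomal sulfatase gene, with 18.9 ± 2.23 CPM in females and 40.3 ± 3.84 CPM in inbred males (SD, n = 2 each; adjusted p = 0.0232, edgeR).

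**Figure D4:**
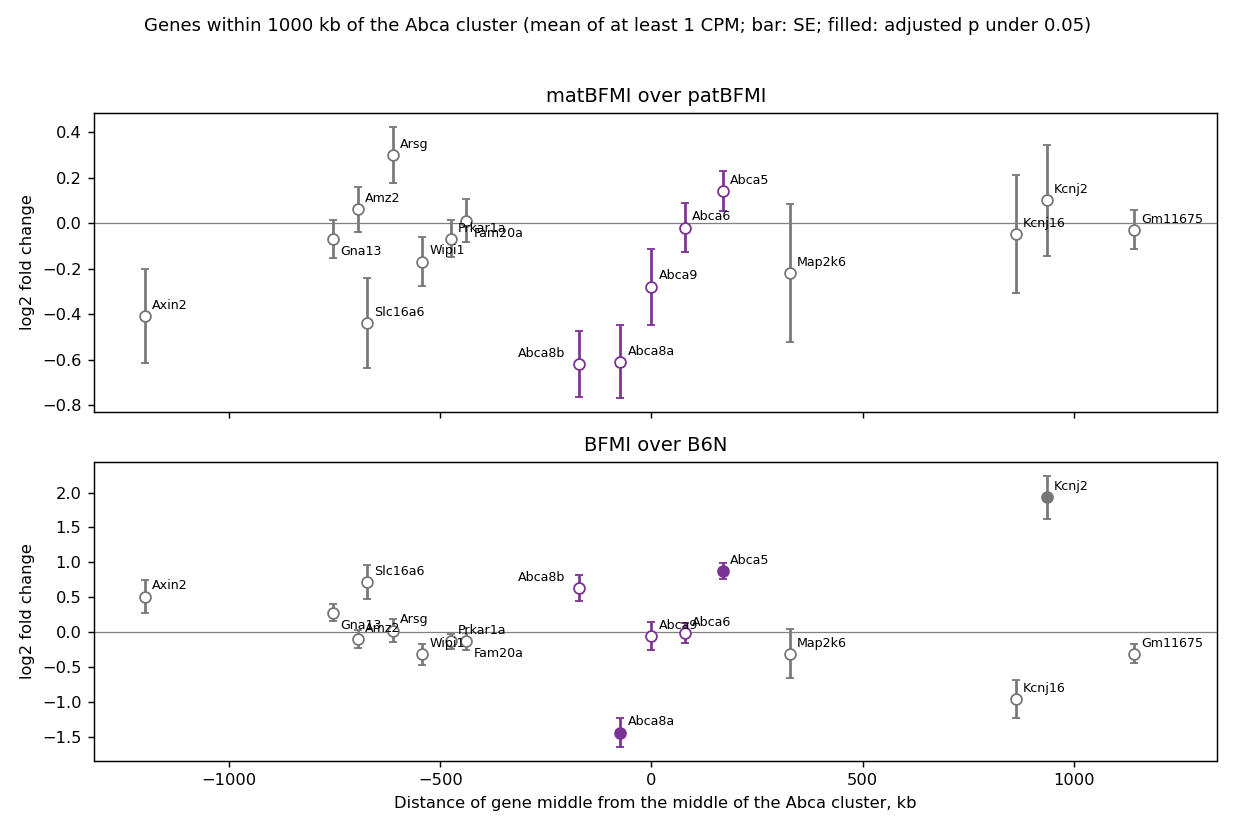
Fitted log2 fold change with SE (vertical axis) of the 5 cluster genes (purple) and of the 12 tested genes around them with a mean of at least 1 CPM (grey), against the distance of each gene from the middle of the cluster in kb (filled, adjusted p under 0.05). For matBFMI over patBFMI the cluster runs between -0.62 at Abca8b and 0.14 at Abca5, and for BFMI over B6N Abca8a (-1.44) and Abca5 (0.87) are filled, as is Kcnj2 (1.93).

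The other members of subfamily A were barely detected. Abca4, Abca12, Abca13, Abca14, Abca15, Abca16 and Abca17 averaged at most 0.428 CPM over the 10 libraries. Of these 7 genes 1, Abca4, was tested between the F1 groups and all 7 in the other comparisons, and 0 passed in any comparison (edgeR). For F1 livers over the parental middle, 2 of them, Abca4 and Abca13, had an unadjusted p below 0.05, against 16.6% of all genes tested. Abca13 had 28 to 59 counts in the inbred libraries and 42 in the first patBFMI library, the F1 library with most genes counted. It had at most 6 in matBFMI, and 0 and 2 in the other patBFMI libraries. The part of such low-level counts in these values was not tested.

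Among the ATP-binding cassette genes of the other subfamilies, 1 of 33 passed between the F1 groups, against 0.143% of all genes tested. This was Abcd2, a peroxisomal importer of very long-chain fatty acids, with 26.8 ± 3.72 CPM in matBFMI and 12.2 ± 1.26 CPM in patBFMI livers (mean ± SD of 3 animals), or 1.12 on the log2 scale (adjusted p = 0.0209, edgeR). The same gene was higher in females, at 94.1 ± 0.254 CPM against 27.7 ± 3.85 CPM in inbred males (SD, n = 2 each; adjusted p = 0.000803, edgeR). Between strains 5 of 35 passed in edgeR, 2 as higher and 3 as lower, against 6.67% of all genes tested. Abcb11, the bile salt export pump, had 393 ± 91.3 CPM in BFMI and 1053 ± 72.0 CPM in B6N (log2 fold change -1.44, adjusted p = 0.000268). Abcc6 (log2 fold change -1.37) and Abcg3 (-1.07) were lower too, whereas Abcb4, which moves phosphatidylcholine into bile, was higher (0.71, adjusted p = 0.0159). Abcg2, an exporter of urate and drugs, was lower in females (log2 fold change -1.27, adjusted p = 0.0462).

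Genes that act on or with Abca1 were counted next. Of 18 liver X receptors and targets, 0 passed between the F1 groups (edgeR). At an unadjusted p below 0.05 the count was 6, with 5 higher and 1 lower in matBFMI, against 9.85% of all genes tested. Fasn, the fatty acid synthase, was nearest at a log2 fold change of 1.33 (adjusted p = 0.0622, edgeR). Srebf1, the regulator of fatty acid synthesis, followed at 0.90 (adjusted p = 0.0964), while Abca1 itself was at -0.06. Between strains 1 of 18 passed, Ttc39b, lower in BFMI (log2 fold change -0.72, adjusted p = 0.039). For F1 livers over the parental middle 2 of 18 passed, Fasn (1.18, adjusted p = 0.0332, edgeR) and Srebf1 (0.78, adjusted p = 0.0393, edgeR). Over all genes tested 6.67% passed between strains and 2.05% for F1 livers over the parental middle.

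Of 16 genes of HDL formation and remodelling, 0 passed between the F1 groups (edgeR). At an unadjusted p below 0.05 the count was 5, with 3 higher and 2 lower in matBFMI, against 9.85% of all genes tested. Between strains 2 passed, against 6.67% of all genes tested. Apom, a carrier of sphingosine-1-phosphate on HDL, had 106 ± 26.9 CPM in BFMI and 207 ± 5.32 CPM in B6N (SD, n = 2 each; adjusted p = 0.00206, edgeR), and Apoa4 was higher in BFMI (log2 fold change 0.98, adjusted p = 0.0259). Of 14 genes of sphingomyelin synthesis, Kdsr, a reductase of the early steps, was the gene that passed between strains, with 42.3 ± 7.13 CPM in BFMI and 26.5 ± 5.90 CPM in B6N (SD, n = 2 each; adjusted p = 0.00283, edgeR). Between the F1 groups 0 of the 12 tested passed, with 3 at an unadjusted p below 0.05, all higher in matBFMI, against 9.85% of all genes.

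Profiles over the 10 libraries were also compared by the root mean square difference of log2 CPM, each gene centred on its mean. Nearest to Abca8a were Plxnb1 (0.19), Amigo1 (0.194) and 3110001I22Rik (0.204), against a median of 0.627 over 19973 genes. Abca8b stood at 0.688, at rank 12583, although it is the closest relative in sequence and a direct neighbour. Nearest to Abca8b were Stat5b (0.163), Cldn1 (0.166) and Rnf125 (0.171), against a median of 0.455. Rnf125, a ubiquitin ligase gene, had 64.8, 74.0 and 67.4 CPM in matBFMI and 106, 97.3 and 104 CPM in patBFMI. It had 121 and 117 CPM in the BFMI male and female, against 67.2 and 63.0 CPM in the B6N male and female. Nearest to Abca1 were Wdr33 (0.046), Usp19 (0.048) and Cul3 (0.062), against a median of 0.341. These are descriptions over 10 livers of 4 groups, and lane partly followed group.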

How the data were processed

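Liver RNA of 10 mice was sequenced after a RiboZero preparation, though the sample records name polyA RNA. The authors deposited raw read counts per gene, made against GRCm38 with Ensembl release 81 in union mode, and RPKM values computed after quantile normalisation of the counts. The aligner differs between sources: the methods name BWA, and the submitters' processing notes list TopHat2 2.10, Bowtie2 2.2.6, Trimmomatic 0.32 and Picard 1.99. Whether counting used strand, and how reads with several matches were treated, is not given in the sources used here. Per table, 3 columns that match no sample here were not used.

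Identifiers were matched to GENCODE M21 on GRCm38 (40254 of 41388 genes). Counts were tested with edgeR 4.0.16 (R 4.3.3), with TMM scaling, quasi-likelihood tests and Benjamini-Hochberg adjustment to 0.05. The F1 groups were fitted on their 6 libraries (genes kept at 10 or more counts in 3 or more of them). The other comparisons used all 10 libraries with a term for sex (10 or more counts in 2 or more). The mid-parent contrast sets the mean of both F1 groups against the mean of both strains. The biological coefficient of variation was 15.9% for the 6 libraries and 17.7% for the 10. Total counts of 46988713 to 96023811 per library left at least 264 counts for every member. In edgeR's count model counting error is a part separate from the biological coefficient of variation. Variation from library preparation was not separated from the spread between animals. The p-values set a difference against the spread between animals that the fit estimated. In the strain and sex comparisons this estimate was shared with the F1 males. It is therefore not the spread within the compared strains or sexes alone. Lane was shared within each F1 group, so the spread between F1 males of a group holds no difference between lanes.

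The RPKM values were used for levels between genes and, as log2(RPKM + 1) and log2(RPKM + 0.1), with limma 3.58.1. DESeq2 1.42.0, other scalings and filters, a block on offspring number, leaving out each library and a strain by sex term, added after the data had been seen, were the alternatives. The edgeR fit of the F1 libraries was tested on simulated counts, and the fit of 10 libraries was not. The authors also logged their RPKM values by ln(x + 1), which was not used here. Named genes were the 9 members, other Abca genes that passed the filter of the fit of 10 libraries, up to 3 genes of smallest p per list and comparison, the genes next to the cluster and any called within 1000 kb, and the 3 nearest profiles of Abca8a, Abca8b and Abca1; Abcb4 was named after its values were seen. Of the 5 genes of other subfamilies called between strains, 1 is not reported here. The members and lists were chosen with earlier results of these data known. Promoters are from RefSeq (8 of 9 members matched), and coding sequences from GENCODE M21, 1 transcript per gene.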

Additional observations from a re-analysis of the deposited data

How the results depend on the processing

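The 9 genes gave 621 values over the alternatives. The sign differed from the main one in 88 of them, in 0 of which the gene passed the test, and in 25 of which the value had moved by more than 1 SE.

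The counts of genes passing moved with the method. Between the F1 groups 24 genes passed, against 56 with library size alone (45 higher and 11 lower, against 16 and 8), 305 in DESeq2, 696 without a filter, 15 with at least 50 counts, 2 and 2 with limma on RPKM, 175 with a block on offspring number, and 12 in the fit of all 10 libraries. Leaving out a library gave 7 to 63. The offspring numbers were not taken as pairs, since the deviations of same-numbered F1 livers correlated at 0.391, 0.006 and 0.205, and Abca8a and Abca8b stayed uncalled under the block. Of the 9 genes 2 were called in DESeq2, without a filter and without the second patBFMI library, where 0 to 2 was the range over the libraries left out.

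Between strains 1332 genes passed, against 364 and 320 with limma, where 1 of the 9 genes was called, and 536 to 1523 with a library left out, where 1 to 3 were. Between sexes 111 passed, against 384 in DESeq2, 582 without a filter, 40 and 34 with limma, 419 in the inbred libraries alone and 38 to 156 with a library left out. Abca3 made the count 1 in DESeq2, without a filter, with at least 50 counts, in the inbred libraries, and without matBFMI 3 or patBFMI 1 (0 to 1 over the libraries left out). For F1 over mid-parent 410 passed, against 871 in DESeq2 (1 of the 9 genes), 1410 without a filter, 264 and 42 with limma, and 13 to 937 with a library left out, the lowest without the BFMI male.

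The 25 changes of sign were all below the threshold, and the cause was not tested. Limma gave -0.08 for Abca7 between the F1 groups (0.1 added). For F1 over mid-parent it gave -0.22 and -0.38 for Abca5, -0.03 and -0.03 for Abca2, and -0.29 and -0.52 for Abca7 (1 and 0.1 added). The others came from leaving out a library, where Abca3 ran over -0.03 to 0.16 between the F1 groups. Between strains Abca6 ran over -0.15 to 0.15, Abca1 over -0.35 to 0.05 and Abca3 over -0.11 to 0.31. Between sexes Abca6 ran over -0.15 to 0.14, Abca8a over -0.16 to 0.47, Abca1 over -0.16 to 0.23 and Abca8b over -0.06 to 0.43. For F1 over mid-parent Abca6 ran over -0.17 to 0.13, Abca8b over -0.24 to 0.22, Abca8a over -0.09 to 0.55, Abca2 over -0.02 to 0.14 and Abca7 over -0.05 to 0.21.

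The strains had 2 livers each and the F1 groups 3, and an exact test of 3 against 3 cannot go below 0.10. The lowest count of any of the 9 genes in a library was 264, for Abca7. Lane was shared within each F1 group.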
